A study of Rattus norvegicus with 18 samples.

Results

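Complement is a system of plasma proteins, cell-surface receptors and regulators that tags microbes and dying cells, draws in leukocytes and opens membranes. The classical and lectin pathways cut C2 to build one C3 convertase, and the alternative pathway cuts factor B with factor D to build another, which properdin holds together. Both convertases cut C3, whose fragments coat targets and signal through receptors such as C3ar1, while Cd55 takes the convertases apart and C1 inhibitor blocks the first proteases. The liver makes most plasma complement, and blood leukocytes, above all monocytes and neutrophils, transcribe several of its genes as well.

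The genes followed here were 9 complement components outside C1q, namely C2, C3, C5, Cfb, Cfd, Cfp, C3ar1, Cd55 and Serping1, of 13601 named genes tested. They were taken as a fixed list of symbols, chosen with earlier results of these data known. Probes were assigned through the RefSeq accession in the array's own annotation. A probe was found for 8 of the 9 genes and C5 was not analysed here. C2 and Cd55 each had 2 probes and the other genes 1, and all 10 probes were well above background in Cy5 on all 18 arrays, so no member was lost to the filter on dim probes.

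Blood was taken from the venous sinus of the eye of male rats, some of the inbred Brown Norway (BN) strain and some of the outbred Sprague Dawley (SD) stock. The groups were BN rats given procainamide at 40 mg/kg (4 arrays), BN control rats given sterile water (4), SD rats given the same dose of procainamide (5) and SD control rats given sterile water (5). Procainamide is an antiarrhythmic drug that can induce lupus-like autoimmunity, and the series asks how strains differ in that response. On each array Cy5 carried the sample and Cy3 carried, by the labels, control replicate 1 of the same strain. The labels give neither the rats' ages nor whether each array stands for its own animal, so the p-values speak only of the spread among arrays, which may be technical.

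Median Cy5 signal ranged over 1694 to 3187 in BN procainamide, 997 to 1986 in BN control, 1446 to 2628 in SD procainamide and 2152 to 2876 in SD control. Precision is limited by how few arrays each group holds. The 4 BN procainamide arrays filled slide 3, the 4 BN control arrays shared slide 2 with SD procainamide 4 and 5, and SD procainamide 1 to 3 shared slide 1 with the 5 SD control arrays. Slides 1 and 3 were scanned on day 1 and slide 2 on day 2, so treatment went together with both slide and scan day in BN. A scan-day term could be fitted only through the SD procainamide arrays, on the assumption that slide 3 behaved like slide 1. Markers of neutrophils, monocytes, T, B and NK cells and erythroid cells were above background on all 18 arrays wherever they had a probe. So were 8 of 8 connective and vessel markers and 6 of 7 gland and eye markers, and 4 of 10 liver markers (Apoa1, Apoa2, Ahsg and Hp). The liver genes Alb, Ttr, Apoh and Serpina1 were above background on 7 to 13 arrays and Fga and Fgb on 0. In whole blood, fewer cells of a type and less RNA per cell cannot be told apart.

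The first comparison asked which complement genes responded to procainamide in BN rats. Of the 8 genes with a probe, C3, C2, Serping1 and Cfb rose, Cfd and C3ar1 fell, and Cfp and Cd55 did not pass the test (limma, adjusted p under 0.05). Of all 26424 probes tested, 7.68% rose and 14.1% fell in that comparison. Higher calls were 35.3% of all calls there, and 46.6% in the authors' deposited matrix. The median difference of the 8 genes was 0.15 on the log2 ratio scale, against -0.02 over all named genes.

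C3, the protein on which all complement pathways converge, changed most. Its log2 ratio of sample over strain reference was 1.99, 3.32, 2.65 and 2.24 on BN procainamide arrays 1 to 4, against -0.15, 0.30, -0.29 and 0.81 on BN control arrays 1 to 4. Every treated array was above every control array, as was so for 8.18% of all named genes. The difference was 2.39 ± 0.25 (SE) on the log2 scale, a 5.23-fold rise with a 95% confidence interval of 3.65 to 7.52 (limma adjusted p = 9.05e-06), and C3 ranked 8 of 13601 named genes from the top. It was the one member of the list that passed with scan day as a term (2.36 ± 0.42, adjusted p = 0.0124) and with array brightness as a term (2.24, adjusted p = 0.00242).

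Promoter sequence is shown for C3, which rose most, and for Cfd and C3ar1, which fell, so that the start of a gene that rose can be set beside those of genes that did not. Each window holds 250 bases before and 50 after the start in RefSeq's GRCr8 annotation, written along the gene's own strand. The window of C3 lies on the minus strand at chr9:2201290-2201589, that of Cfd on the minus strand at chr7:10465447-10465746 and that of C3ar1 on the minus strand at chr4:157756481-157756780. Capitals mark matches, on either strand, to GGGNNNNNCC, a form of the NF-kB site, and to TTGCNNAA, a form of the C/EBP site.
C3: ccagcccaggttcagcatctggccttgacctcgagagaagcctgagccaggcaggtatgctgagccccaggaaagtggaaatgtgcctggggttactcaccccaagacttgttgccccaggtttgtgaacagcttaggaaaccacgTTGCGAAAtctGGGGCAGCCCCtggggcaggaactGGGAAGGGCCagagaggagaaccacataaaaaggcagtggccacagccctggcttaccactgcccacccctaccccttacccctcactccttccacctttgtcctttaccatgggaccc
Cfd: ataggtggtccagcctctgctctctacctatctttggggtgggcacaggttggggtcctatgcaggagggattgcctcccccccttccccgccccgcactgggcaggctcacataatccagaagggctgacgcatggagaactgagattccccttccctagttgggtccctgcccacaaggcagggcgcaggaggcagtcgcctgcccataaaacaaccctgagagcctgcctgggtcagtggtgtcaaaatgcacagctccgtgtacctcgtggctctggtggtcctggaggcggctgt
C3ar1: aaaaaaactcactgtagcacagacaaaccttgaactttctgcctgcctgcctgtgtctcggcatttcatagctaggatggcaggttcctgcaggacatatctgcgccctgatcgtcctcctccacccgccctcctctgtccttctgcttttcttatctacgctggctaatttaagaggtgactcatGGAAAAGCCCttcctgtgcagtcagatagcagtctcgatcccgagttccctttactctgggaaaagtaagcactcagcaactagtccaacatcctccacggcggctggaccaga
The C3 window holds 3 matches to GGGNNNNNCC, of which the first pair overlap, and 1 match to TTGCNNAA. C3ar1 holds 1 match to GGGNNNNNCC and Cfd has none of either motif. The windows of Cfp and Cd55, genes not called in BN, hold 2 matches each to GGGNNNNNCC, and that of C5 holds 1. Matches to GGGNNNNNCC occur in 47.3% and matches to TTGCNNAA in 10.6% of the 33469 RefSeq promoter windows of this length. The interferon-gamma-activated form TTCNNNGAA, present in 8.87% of windows, and the interferon-stimulated form GAAANNGAAA, present in 3.92%, matched none of the 6 windows found for list members (C3, C5, Cfd, Cfp, C3ar1 and Cd55). No window was found for C2, Cfb and Serping1, so their promoters were not searched. A match of letters is a description and not a binding site.

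C2, the serine protease of the classical and lectin convertase, rose in BN blood. Its log2 ratio was 0.96, 1.94, 1.90 and 1.18 on the BN procainamide arrays, against 0.63, -0.11, -0.55 and 0.32 on the BN control arrays, without overlap. The lowest treated array, 0.96, and the highest control array, 0.63, lay close together. The difference was 1.43 ± 0.24, or 2.69-fold (95% confidence interval 1.89 to 3.81, limma adjusted p = 6.20e-04). The other C2 probe gave 1.58 ± 0.23 (adjusted p = 2.18e-04). BN control 1, by its labels an RNA set against itself, held that highest C2 ratio of 0.63.

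Cfb encodes factor B, the counterpart of C2 in the alternative pathway and its neighbour on chromosome 20. The Cfb log2 ratio was 0.13, 0.64, 0.38 and 0.36 on the BN procainamide arrays, against -0.17, -0.07, -0.01 and -0.03 on the BN control arrays. The groups did not overlap, and the difference was 0.45 ± 0.13 (limma adjusted p = 0.0208), a 1.36-fold rise. Without BN procainamide 2 it was 0.36 and no longer passed (adjusted p = 0.0754). It did not pass either in the scanner's own log ratio (0.40, adjusted p = 0.0552) or in the authors' deposited matrix (0.40, adjusted p = 0.0539). Serping1, the gene of C1 inhibitor, gave 0.31, 0.91, 0.35 and 1.22 on the BN procainamide arrays and -0.18, 0.00, 0.07 and -0.21 on the BN control arrays. Its groups did not overlap either, although the treated arrays spread widely, with an SD of 0.44 against 0.13 in the controls. The rise was 0.78 ± 0.16, or 1.72-fold (limma adjusted p = 0.00254).

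Cfd, the gene of factor D (adipsin), the protease that cuts factor B, fell in BN blood. Its log2 ratio was -0.76, -0.81, -0.14 and -0.92 on the BN procainamide arrays, against 0.41, 0.05, -0.20 and -0.30 on the BN control arrays, so that BN procainamide 3 lay among the controls. The difference was -0.65 ± 0.21 (limma adjusted p = 0.0375). The call was lost without any one of BN procainamide 1, 2 or 4 or BN control 1 or 2, where the adjusted p lay between 0.0669 and 0.11. It was also lost with the replicate number as a block (-0.65, adjusted p = 0.0525), with scan day as a term (-1.20, adjusted p = 0.093), in the scanner's own log ratio (-0.57, adjusted p = 0.0749) and in the authors' deposited matrix (-0.57, adjusted p = 0.0732). Factor D is best known from fat cells. Of 4 tested fat markers in BN, Fabp4 fell (-1.32) and Adipoq (-1.80), Cidec (-0.36) and Lpl (-0.18) did not pass the test, and their mean log2 ratio lay between -1.77 and -0.82 on the BN procainamide arrays, against -1.05 to 0.19 on the BN control arrays. The part of fat-derived RNA in the fall of Cfd was not tested.

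Cfp, the gene of properdin, which leukocytes make and which stabilises the alternative convertase, had log2 ratios of -1.09, -0.86, 0.17 and -1.10 on the BN procainamide arrays, against 0.29, 0.11, -0.57 and 0.08 on the BN control arrays. The third array of each group stood on the far side of the others, so the groups overlapped. The difference of -0.70 ± 0.26 did not pass (limma adjusted p = 0.0603). Without BN procainamide 3 it was -0.99 (adjusted p = 0.00384), and without BN control 3 it was -0.88 (adjusted p = 0.0269). It also passed with median centring (-0.78, adjusted p = 0.0437). On BN procainamide 3, the array that stood apart for Cfd, Cfp and C3ar1, the Cy5 signal was well above background for 73.3% of probes, against 81.2% to 87.1% on the other 17 arrays. The part of that lower share in the values of the 3 genes was not tested.

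C3ar1, the receptor for the C3 fragment C3a, fell modestly. Its log2 ratio was -0.55, -0.59, -0.10 and -0.60 on the BN procainamide arrays, against -0.03, 0.00, -0.26 and 0.21 on the BN control arrays, and the groups overlapped through BN procainamide 3 and BN control 3. The difference was -0.44 ± 0.12 (limma adjusted p = 0.0131). Without BN control 4 it was -0.36 and did not pass (adjusted p = 0.0543). Cd55, the decay-accelerating factor that guards host cells, had log2 ratios of -0.15, -0.30, -0.82 and -0.43 on the BN procainamide arrays, against 0.57, -0.48, -0.58 and -0.66 on the BN control arrays. BN control 1 alone was above 0, and the difference of -0.14 ± 0.21 did not pass (95% confidence interval -0.59 to 0.31, adjusted p = 0.688). The other Cd55 probe gave 0.28 ± 0.32, which did not pass either (adjusted p = 0.571).

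**Figure D1:**
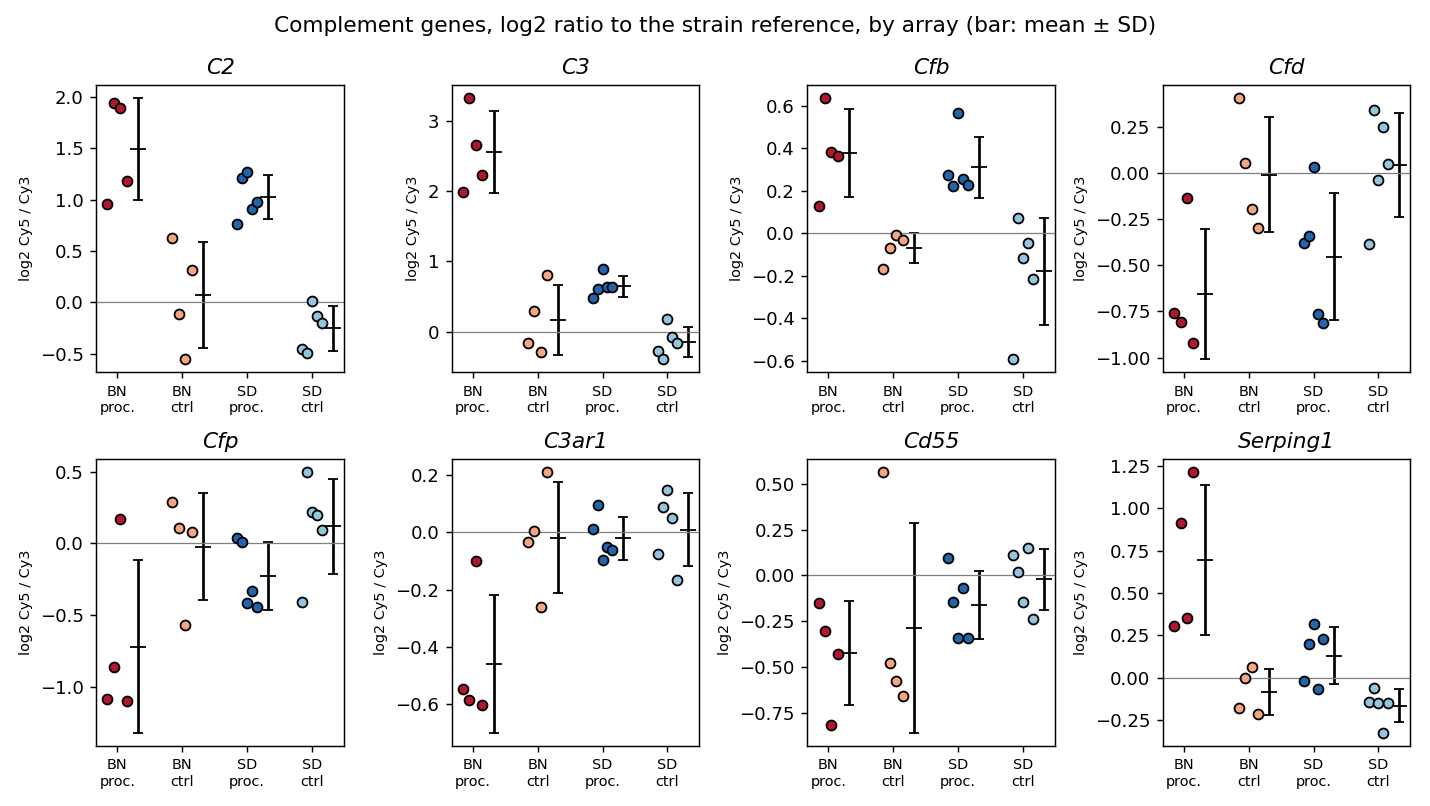
Log2 ratio of Cy5 (sample) over Cy3 (strain reference) of 8 complement genes, 1 panel a gene and 1 point an array, in BN procainamide, BN control, SD procainamide and SD control rats, with bars for mean ± SD. The BN procainamide arrays of C3 lie between 1.99 and 3.32, above all other arrays, while C2 is raised in the procainamide arrays of both strains.

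The second comparison put the same question in SD rats. C2 and Cfb rose and the other 6 genes with a probe did not pass the test. Of all probes tested, 1.36% rose and 1.39% fell in SD. The median difference of the 8 genes was 0.13, against -0.01 over all named genes.

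C2 had log2 ratios of 0.77, 1.21, 1.27, 0.91 and 0.98 on SD procainamide arrays 1 to 5, against -0.45, -0.50, 0.01, -0.13 and -0.20 on SD control arrays 1 to 5. The groups were well apart (4.37% of all named genes were higher in SD procainamide with no overlap), and the difference was 1.28 ± 0.21, or 2.43-fold (95% confidence interval 1.78 to 3.33, limma adjusted p = 0.00425), which placed C2 at rank 19 of 13601. The other C2 probe gave 1.38 ± 0.20 (adjusted p = 0.00206), and C2 passed under every alternative tried. Cfb had log2 ratios of 0.28, 0.22, 0.57, 0.26 and 0.23 on the SD procainamide arrays, against -0.59, 0.07, -0.12, -0.05 and -0.21 on the SD control arrays. Every treated array was above every control array, and the difference was 0.49 ± 0.12 (limma adjusted p = 0.0326). SD procainamide 3 and SD control 1 stood at the outer ends. The Cfb difference was 0.43 without SD procainamide 3 (adjusted p = 0.0766) and 0.39 without SD control 1 (adjusted p = 0.0735). It also failed to pass without SD procainamide 2, 4 or 5 or SD control 4 or 5, where it lay between 0.48 and 0.52 (adjusted p of 0.0502 to 0.0706), and it was 0.25 in Cy5 alone (adjusted p = 0.161). Nor did it pass in the scanner's own log ratio (0.46, adjusted p = 0.0725), in the authors' deposited matrix (0.46, adjusted p = 0.0663) or with scan day as a term (0.53, adjusted p = 0.0786).

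C3 had log2 ratios of 0.47, 0.61, 0.89, 0.64 and 0.63 on the SD procainamide arrays, against -0.27, -0.39, 0.18, -0.08 and -0.15 on the SD control arrays. The groups did not overlap, but the difference of 0.79 ± 0.22 missed the threshold (1.73-fold, 95% confidence interval 1.25 to 2.39, limma adjusted p = 0.0631). On slide 1 alone, which held 3 treated and 5 control arrays, it was 0.80 and passed (adjusted p = 0.0368), whereas Cfb was 0.53 there and lost its call (adjusted p = 0.123). Cfd gave -0.38, -0.34, 0.03, -0.76 and -0.81 on the SD procainamide arrays, against -0.38, 0.34, -0.04, 0.25 and 0.05 on the SD control arrays. These groups overlapped and the difference of -0.50 ± 0.19 did not pass (adjusted p = 0.182). In SD rats Serping1 differed by 0.30 ± 0.14 (adjusted p = 0.305), Cfp by -0.35 ± 0.23 (0.474), Cd55 by -0.14 ± 0.19 (0.77) and C3ar1 by -0.03 ± 0.11 (0.924). For C3ar1 the 95% confidence interval was -0.25 to 0.19.

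C2 and Cfb sit side by side on chromosome 20, so their response was also compared within each array. The log2 ratio of C2 minus that of Cfb averaged 1.12 ± 0.35 (SD, n = 4) on the BN procainamide arrays and 0.14 ± 0.57 (n = 4) on the BN control arrays, a difference of 0.98 (exact two-sided permutation p = 0.0286, the smallest that 4 against 4 arrays can give). It averaged 0.72 ± 0.18 (SD, n = 5) on the SD procainamide arrays and -0.08 ± 0.29 (n = 5) on the SD control arrays, a difference of 0.79 (exact two-sided permutation p = 0.00794, again the smallest possible). In BN the lowest treated value, 0.82, was barely above the highest control value, 0.80, while in SD these were 0.49 and 0.14. The measured ratio of C2 therefore moved more than that of its neighbour in both strains, as a statement about 1 probe of each gene. In SD both channels entered: C2 and Cfb differed by 0.65 and 0.25 in Cy5, and by -0.63 and -0.24 in the reference channel Cy3.

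The third comparison tested whether the responses differed between the strains, as BN response minus SD response. C3 alone passed, with a response larger in BN by 1.60 ± 0.33 on the log2 scale, or 3.03-fold (95% confidence interval 1.86 to 4.92, limma adjusted p = 0.00588). Of all probes, 2.59% were called higher in this contrast and 8.56% lower, and C3 ranked 9 of 13601 named genes. With scan day as a term the C3 difference was 1.56 (adjusted p = 0.832) and with brightness as a term 1.39 (adjusted p = 0.426). With these terms limma called 0 and 6 of 26424 probes (1527 and 2532 had an unadjusted p under 0.05).

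The responses of C2 differed by 0.14 ± 0.32, which did not pass and whose 95% confidence interval ran from -0.53 to 0.82 (adjusted p = 0.817). For Cfb the difference was -0.04 (interval -0.41 to 0.33). C3ar1 differed by -0.41 ± 0.16 (adjusted p = 0.104) and Serping1 by 0.48 ± 0.22 (adjusted p = 0.158), neither of which passed. Without BN procainamide 3 the C3ar1 value was -0.53 and passed (adjusted p = 0.0212). Cfp, Cfd and Cd55 differed by -0.35, -0.15 and 0.00, with intervals that included 0.

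**Figure D2:**
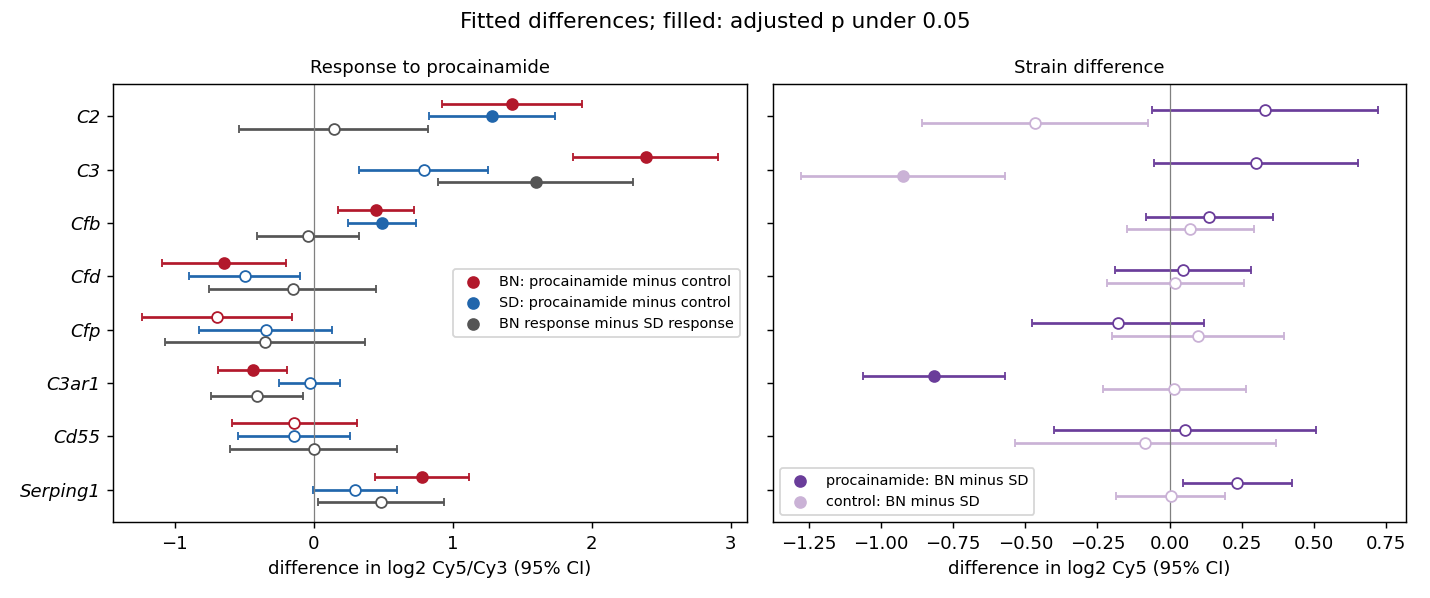
Fitted log2 differences with 95% confidence intervals of 8 complement genes, for the procainamide response in BN and SD rats and for the strain comparisons; filled symbols mark an adjusted p under 0.05. The BN response of C3 (2.39) stands clear of its SD response (0.79), whereas those of C2 (1.43 and 1.28) lie together.

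The strains were compared directly in log2 Cy5 intensity, since their references were different RNA. No BN array shared a slide with an SD array of the same treatment, and the BN and SD control arrays were scanned on different days. Within the arrays compared, strain thus went together with slide, and among controls with scan day too. Among control rats C3 was the one called gene of the list, and it was lower in BN. Its log2 Cy5 was 13.63, 13.90, 13.37 and 14.44 on the BN control arrays, against 14.64, 14.67, 14.97, 14.80 and 14.69 on the SD control arrays. No BN value reached the lowest SD value, and the difference was -0.92 ± 0.17 (limma adjusted p = 5.38e-04). Of all probes, 16.9% were called lower and 21.7% higher in BN controls, and 19.4% of named genes were lower with no overlap. With scan day as a term the C3 value was -0.80 and did not pass (adjusted p = 0.214).

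C2 averaged 13.84 ± 0.33 (SD, n = 4) on the BN control arrays and 14.31 ± 0.22 (n = 5) on the SD control arrays, and the difference of -0.47 just missed the threshold (limma adjusted p = 0.0554). It passed without BN control 4 (-0.59, adjusted p = 0.0293) and without SD control 2 (-0.54, adjusted p = 0.0431). With processed Cy5 scaled to its 75th percentile the C2 difference was 0.020 and did not pass. These C2 values are those of its brighter probe. For the dimmer C2 probe the difference was smaller, -0.26 ± 0.18, and did not pass (limma adjusted p = 0.247). The brighter Cd55 probe differed by -0.08 (adjusted p = 0.78), but the dimmer one was called lower in BN controls (-0.93 ± 0.32, adjusted p = 0.0301), so the probes of Cd55 disagreed. BN control 1 was the bright exception on both, at 12.18 and 9.94 on the brighter and dimmer probe. Without that array the brighter probe gave -0.39 (adjusted p = 0.0452). Cfb, Cfd, Cfp, C3ar1 and Serping1 differed by 0.10 or less, but with processed Cy5 scaled to its 75th percentile Cfb (0.31), Cfd (0.39) and Cfp (0.36) were called higher in BN.

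Among procainamide-treated rats C3ar1, and not C3, was called, and it was lower in BN. C3ar1 had log2 Cy5 of 8.67, 8.87, 9.10 and 8.66 on the BN procainamide arrays, against 9.47, 9.59, 9.46, 9.81 and 9.86 on the SD procainamide arrays. All BN values were below all SD values, and the difference was -0.82 ± 0.12 (limma adjusted p = 2.06e-04). Of all probes, 11.7% were called lower and 8.31% higher in BN (27.6% of calls higher with processed Cy5 at its 75th percentile, against 41.4%), and 7.04% of named genes were lower with no overlap. C3ar1 kept its call with scan day (-0.68, adjusted p = 0.00179) and with brightness (-0.79, adjusted p = 0.00116) as a term.

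C3 in treated rats was 15.36, 15.89, 15.59 and 15.31 on the BN procainamide arrays, against 15.15, 15.28, 15.43, 15.15 and 15.18 on the SD procainamide arrays. The groups overlapped and the difference of 0.30 did not pass (95% confidence interval -0.05 to 0.65, adjusted p = 0.219). The strains' C3 signals thus differed by -0.92 in control rats and by 0.30 in treated rats. Serping1 was 0.23 higher in BN, which did not pass (adjusted p = 0.0749). It passed without BN procainamide 3 (0.29, adjusted p = 0.0416) and with processed Cy5 at its 75th percentile (0.27, adjusted p = 0.0402). The other 5 genes differed by -0.18 to 0.33, none of them called.

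**Figure D3:**
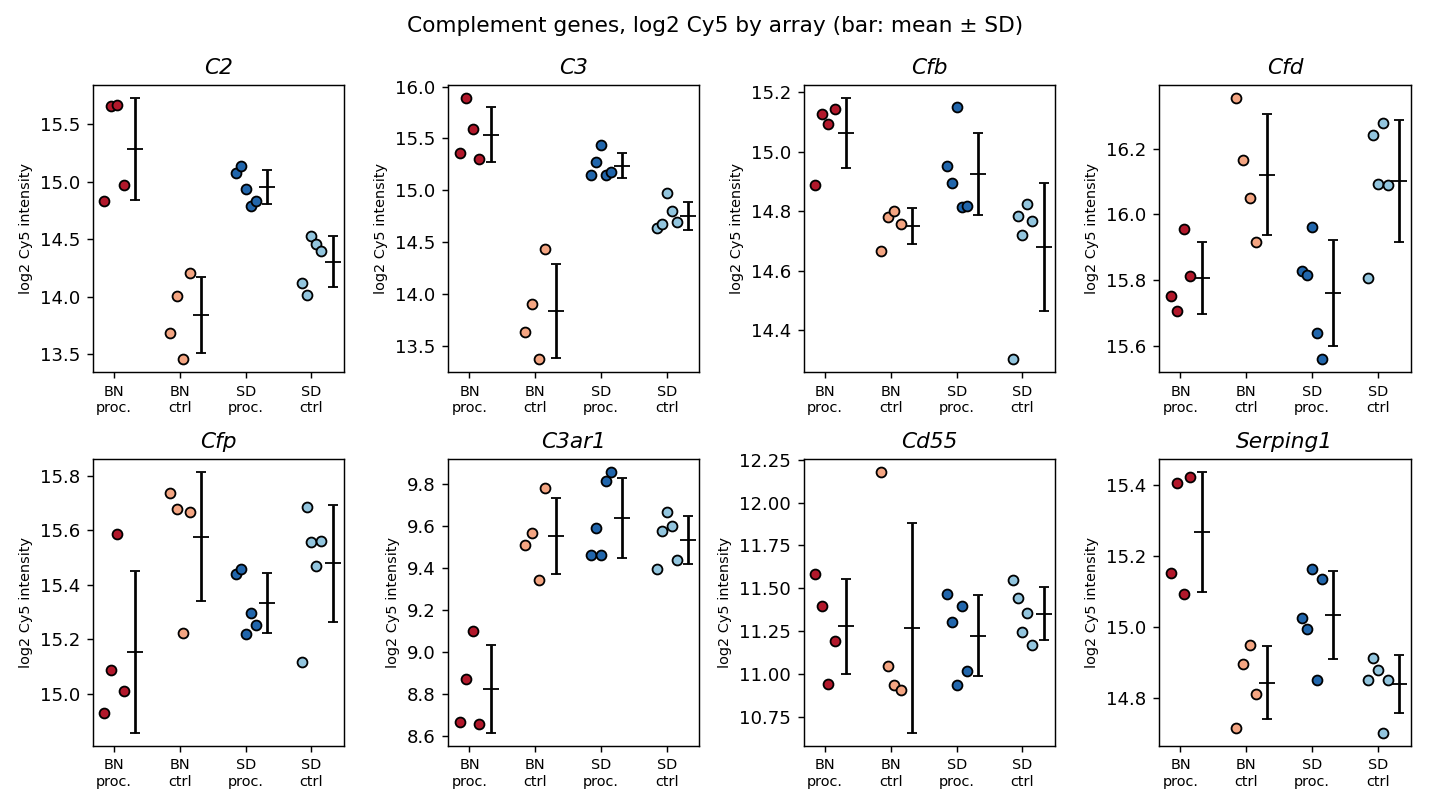
Log2 Cy5 intensity of 8 complement genes after normalization, 1 panel a gene and 1 point an array, in the 4 groups, with bars for mean ± SD. C3 is lowest on the BN control arrays (13.37 to 14.44), and C3ar1 on the BN procainamide arrays (8.66 to 9.10).

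A ratio moves with either of its channels, and so the channels were fitted apart. In Cy5 alone the BN response was 1.70 for C3 (limma adjusted p = 8.47e-06), 1.44 for C2, 0.43 for Serping1 and 0.31 for Cfb. It was -0.73 for C3ar1, -0.42 for Cfp and -0.31 for Cfd, so 7 of the 8 genes passed, as did 38.4% of all probes. In Cy3, which by the labels held the same RNA on all arrays of a strain, C3 differed by -0.68 between the BN procainamide and BN control arrays (adjusted p = 1.41e-04), so the reference signal was lower on the treated arrays. Serping1 (-0.35) and C3ar1 (-0.29) were lower there too, and Cfd (0.33) and Cd55 (0.15) higher. Of all probes, 53.0% differed in Cy3 between the BN groups, which lay on different slides, against 0.159% between the SD groups. The C3 ratio difference of 2.39 was thus made up of 1.70 in Cy5 and -0.68 in Cy3.

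In SD rats the Cy5 response of C2 was 0.65 (limma adjusted p = 0.048), while in Cy3 the C2 signal differed by -0.63 (adjusted p = 0.0826). For this brighter C2 probe the SD ratio difference of 1.28 came in near equal parts from sample and reference channel. Its BN difference of 1.43 came with 0.02 in Cy3, where the BN control arrays ranged from 13.06 to 14.12. The dimmer C2 probe averaged 14.69 in Cy5 on the SD procainamide arrays and 13.74 on the SD control arrays. In Cy3 it averaged 13.34 and 13.78, so the reference channel made up less of its SD ratio difference of 1.38. For C3 in SD the values were 0.48 in Cy5 (adjusted p = 0.0933) and -0.31 in Cy3. In Cy5 alone the strain difference in response passed for C3 (1.22, adjusted p = 0.00104), C3ar1 (-0.83, adjusted p = 0.00126) and C2 (0.80, adjusted p = 0.0266), along with 34.2% of all probes, of which 41.6% were higher, against 23.2% in the ratio. C2 and C3ar1 were thus called in Cy5 alone and not in the ratio of all arrays, for C2 as a statement about its brighter probe. In the ratio C3ar1 passed as well once BN procainamide 3 was left out.

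Loess and the scaling between arrays were also left out, with each channel scaled to its 75th percentile only. The BN response in Cy5 was then 1.74 for C3, 1.47 for C2, -1.04 for C3ar1, -0.86 for Cfd and -0.87 for Cfp, all past the threshold. So were 49.4% of all probes. Serping1 (0.21, adjusted p = 0.131) and Cfb (0.13, adjusted p = 0.387) did not pass. The strain difference in response in Cy5 then passed for Cfd (-0.74, adjusted p = 0.00498) and Cfp (-0.91, adjusted p = 0.00234), which had been 0.03 and -0.28 after loess and the scaling between arrays. It passed for C3 (1.13), C3ar1 (-1.08) and C2 (0.75) as well, along with 42.4% of all probes. In Cy3 the C3 difference was -0.75 (adjusted p = 1.82e-04) and 47.6% of all probes differed between the BN groups. Slide, scan day and treatment cannot be told apart in that reference difference. BN control 1, by its labels 1 RNA in both channels, had log2 ratios with an SD of 0.410 over probes, within the 0.334 to 0.459 of the other BN control arrays. Whether Cy3 held the RNA that its label names on every array was not tested, and each log2 ratio given here rests on that label.

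**Figure D4:**
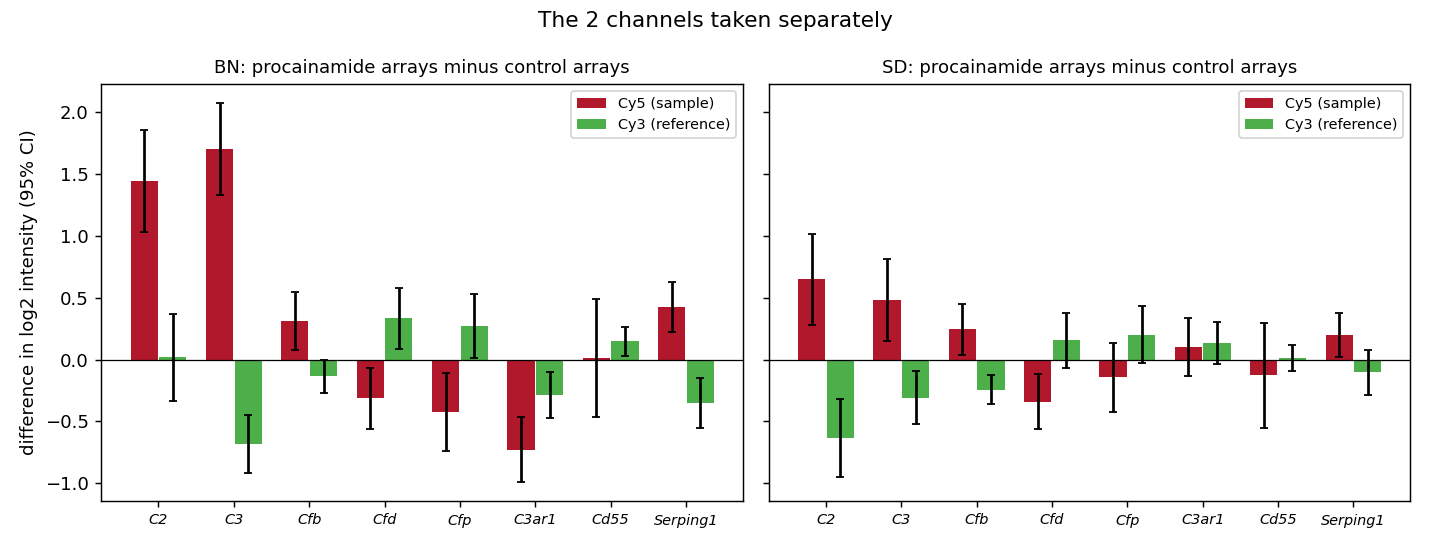
Differences in log2 intensity between procainamide and control arrays, with 95% confidence intervals, for Cy5 (sample) and Cy3 (reference) of 8 complement genes in BN and SD rats. In BN the Cy5 value of C3 is 1.70 and its Cy3 value -0.68; in SD the values of C2 are 0.65 and -0.63.

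Other genes of the complement system were counted from a list of 42, of which 36 had a probe and 32 were tested. In BN rats 6 rose and 8 fell, with a median difference of -0.04, where 22.8% of all named genes were called in either direction. C1s, a protease of the C1 complex, rose by 0.80 ± 0.09 (limma adjusted p = 1.37e-05), C5ar1, the C5a receptor, by 0.75 ± 0.15 and Cd93, a receptor on myeloid and endothelial cells, by 0.52 ± 0.11. The lectin Fcna changed by -1.62 ± 0.30 and the terminal component C8b by -0.54 ± 0.11. In SD rats 0 rose and 1 fell, where 3.18% of all named genes were called. In the strain difference in response 3 of the 32 were called higher and 4 lower.

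Interferon gamma is known to induce C2, Cfb and Serping1 in leukocytes, and genes of its signal were read beside them. Of 17 tested genes of that list, 9 rose and 0 fell in BN, among them Ifng (3.43) and Irf1 (1.47), and 6 rose and 0 fell in SD (Ifng by 2.17, Irf1 by 0.89). Markers of neutrophils rose in 2 of 9 cases in BN and 0 of 9 in SD, and their mean log2 ratio ranged from -0.33 to 0.89 on the BN procainamide arrays, against -0.57 to 0.09 on the BN control arrays. Of 9 monocyte markers, Lyz2 rose in BN (1.29) and none passed in SD. Their mean log2 ratio ranged from -0.18 to 0.73 on the BN procainamide arrays, against -0.30 to 0.10 on the BN control arrays. Of 6 NK cell markers, Nkg7 and Klrc1 rose in both strains, and the mean log2 ratio of the 6 ranged from -0.19 to 0.71 on the BN procainamide arrays, against -0.52 to 0.08 on the BN control arrays, and from -0.16 to 0.04 on the SD procainamide arrays, against -0.37 to 0.17 on the SD control arrays. Of 7 erythroid markers Klf1 fell in BN and none passed in SD, and of 8 T cell and 4 B cell markers none passed in either strain. Of 6 platelet markers 4 fell in BN and 0 in SD. Of 8 connective and vessel markers 4 fell in BN and 2 in SD, and of 6 gland and eye markers 3 fell and 1 rose in BN and 2 fell in SD. The mean log2 ratio of the connective and vessel markers ranged from -1.05 to -0.32 on the BN procainamide arrays, against 0.02 to 0.04 on the BN control arrays, and that of the gland and eye markers from -1.39 to -1.05, against -0.03 to 0.31. Of 8 liver markers Apoa2 fell in BN and none passed in SD. The part of interferon gamma, or of these cells or tissues, in the changes of C3, C2, Serping1, Cfb, Cfd and C3ar1 was not tested.

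For the members called in either response, the named genes with the most similar profile over the 18 arrays were listed, by Pearson r of the log2 ratio. For C2 these were Irgm, Apol3l1 and Papss2 (r of 0.96 each). For C3 they were Ass1 (0.96), Cxcl16 (0.95) and Slc6a12 (0.94), and for Serping1 Ewsr1 (0.96), Whamm (0.95) and Stat2 (0.92). Cfb was closest to Mipep, Got1l1 and Lrrc8c (0.87 to 0.89), Cfd to Tnfrsf21, Gask1b and Itih1 (0.87 to 0.88) and C3ar1 to Gprc5d, Pdgfrl and Bag3 (0.88 to 0.91). The 18 arrays share a reference within each strain and fall into 4 groups, so these are descriptions of profile only.

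**Figure D5:**
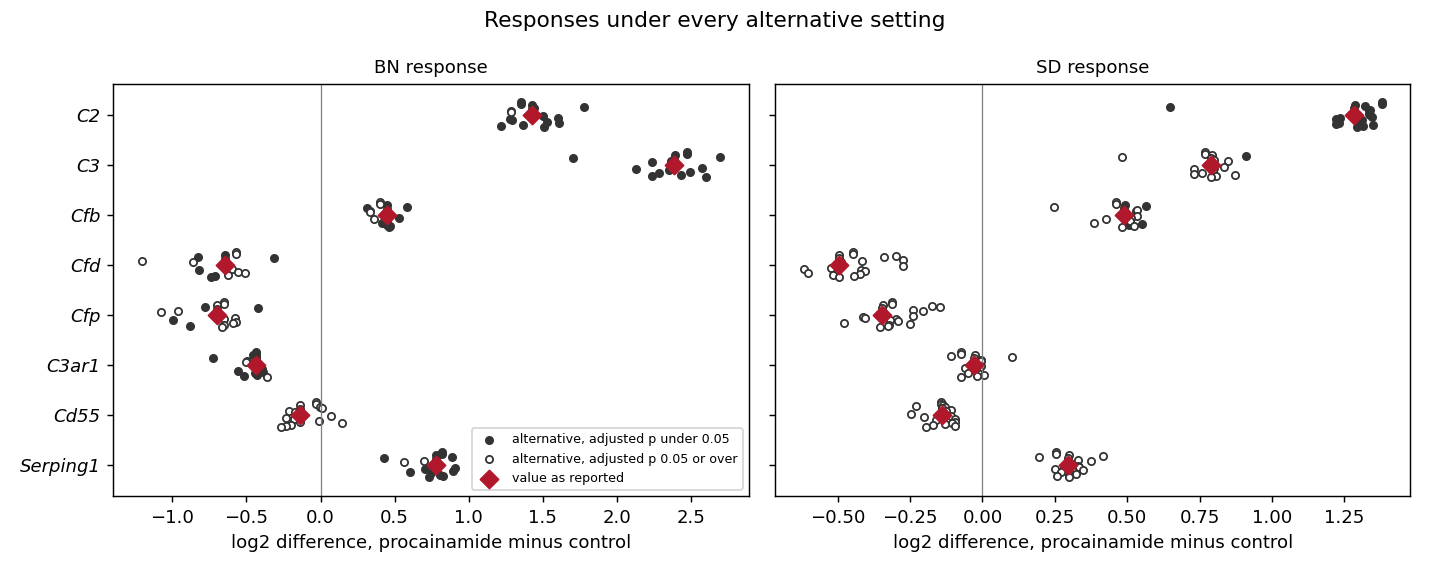
Log2 response to procainamide of 8 complement genes under each alternative setting in BN and SD rats, as points (filled where the adjusted p is under 0.05), with the reported value as a diamond. C3 in BN ranged from 1.70 to 2.70 and C2 in SD from 0.65 to 1.38, filled throughout, while the BN values of Cfd ranged from -1.20 to -0.31 and were filled in part.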

How the data were processed

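RNA from rat blood was hybridised to 18 Agilent 2-colour arrays of design 028279, per the file headers. Total RNA was isolated with Trizol and amplified and labelled with an Agilent low-input kit, per the labels' protocols. The raw values are median pixel intensities of spot and local background in both channels, not normalized, made with Feature Extraction 10.7.1.1, per the file headers. Per the file headers, that software also made processed intensities by subtracting background, detrending and normalizing the dyes. Their log10 ratio, also in the files per the file headers, served as an alternative. A deposited table gives 1 log2 value for each of 25602 probes, with scale, centring and direction unstated. Set against the scanner's log ratios, each column had slope 1 and r 1, so it holds log2 Cy5/Cy3 and centres no gene. Its column medians were 0.0653, 0.0477, 0.0179 and 0.0368 for BN procainamide 1 to 4, -0.0140, 0.0135, 0.00266 and 0.000872 for BN control 1 to 4, 0.0282, 0.0367, 0.0575, 0.0180 and 0.0133 for SD procainamide 1 to 5, and 0.0210, 0.00510, 0.0173, 0.0121 and 0.0181 for SD control 1 to 5. Its filter on probes stays unknown.

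In R 4.3.3 with limma 3.58.1, medians were background-corrected by normexp (offset 50) and normalized by loess within arrays (control spots weighted 0), and replicate spots were averaged. Of 30367 probes, 18355 carried 1 RefSeq symbol, and 26424 were tested because their Cy5 was well above background on at least 4 arrays. They stood for 13601 named genes. A gene was represented by its brightest tested probe. No spot was saturated. Cy5 for the strain comparisons was also scaled by Aquantile. A single limma model of the 18 arrays, with 1 coefficient a group, gave every contrast (2-sided, eBayes, Benjamini-Hochberg over all probes, threshold 0.05). It was tested on simulated data first. Within-group SDs of the log2 ratio had medians of 0.212 (BN procainamide), 0.183 (BN control), 0.175 (SD procainamide) and 0.133 (SD control). Control replicate 1 was by its labels set against itself. The SD over its log2 ratios was 0.410 in BN (0.334 to 0.459 on the other BN control arrays) and 0.253 in SD (0.205 to 0.285 on the others). Correlations of the deviations of same-numbered treated and control arrays lay between -0.523 and 0.129. These values cannot show whether the numbers pair the arrays, which were fitted as unpaired.

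The members and all lists were chosen with earlier results of these data known. All members were named, other complement genes only where called (up to 6 of smallest p in a comparison), and for likeness the 3 genes of highest r. Some genes that were counted are not reported here by name. Alternatives were the scanner's log ratio, the deposited matrix, no background correction, median centring, Cy5 alone, other scalings of Cy5, no filter, terms for scan day, brightness, slide and replicate, the mean of probes, and leaving out each array. Symbols came from RefSeq, and promoter windows from its GRCr8 table, which held 6 of the 9 members. The header's build is rn4, so the only coordinates printed are those of the GRCr8 promoter windows. Exact tests used scipy 1.17.1.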

Additional observations from a re-analysis of the deposited data

Results flagged for a closer look

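The response of C3 to procainamide was 1.60 larger in BN than in SD rats on the log2 scale, by a test of the difference itself. This difference did not pass with scan day or array brightness as a term. In Cy5 alone it was 1.22 and passed. Treatment went together with slide in BN.

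Among 64 groups of 4 or 5 arrays looked at, 6 held 1 array set far from the others by Dixon's test, which chance alone does in about 1 group in 20. In log2 ratio, C3ar1 was -0.10 on BN procainamide 3, against -0.60 to -0.55 on the other 3 arrays of its group. Cd55 was 0.57 on BN control 1, against -0.66 to -0.48, and Cfb was 0.57 on SD procainamide 3, against 0.22 to 0.28. In log2 Cy5, Cd55 was 12.18 on BN control 1, against 10.90 to 11.05, Cfb was 14.30 on SD control 1, against 14.72 to 14.82, and Cfp was 15.22 on BN control 3, against 15.67 to 15.74. BN control 1 accounts for both Cd55 values.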

How the results depend on the processing

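Over all alternatives, the called differences of single genes kept direction and call in 186 of 223 cases and lost the call, in the same direction, in the other 37. Differences not called kept their side and sign in 553 of 625 cases, passed in 17 and changed sign in 55. The causes were not tested. In BN the 6 called genes became 1 (C3) with scan day as a term and 1 with brightness, 4 (C2, C3, C3ar1 and Serping1) in the scanner's own ratio and in the deposited matrix, and 4 to 7 when each array was left out. In SD the 2 became 1 (C2) in the scanner's own ratio, the deposited matrix, Cy5 alone and with scan day, and 1 to 2 when each array was left out. In the strain difference in response the 1 called gene became 3 in Cy5 alone, 0 with scan day and 0 with brightness (2 each at an unadjusted p under 0.05 by limma), and 1 to 2 when each array was left out. Among controls it became 4 with processed Cy5 at the 75th percentile, 0 with scan day (1 unadjusted), and 1 to 2 when each array was left out, and among treated rats 2 and, without single arrays, 1 to 2. Called probes numbered 5754 in BN (209 with scan day, 685 with brightness, 10158 in Cy5 alone), 727 in SD (254, 427 and 968; 344 within slide 1; 391 with the replicate block; 234 to 956 without single arrays), 2947 in the difference in response (0, 6 and 9036; 1882 to 3822 without single arrays), 10197 in controls (384 and 2759; 4572 with slide as a random block) and 5298 in treated rats (2638 and 2907; 2124 and 3424 with slide and replicate blocks; 3282 to 5847 without single arrays). The mean of a gene's probes was tested over genes and is not compared in number. With the replicate number as a block 5 genes passed in BN (Cfd, -0.65, did not), 2 in SD and 1 in each other comparison, and no other call changed. Whether the numbers pair the arrays is not known.

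All changes of sign concerned genes that were not called. Cd55 in BN was 0.0090 in Cy5 alone, 0.071 as the mean of its probes and -0.26 to 0.15 without single arrays. C3ar1 in SD was 0.10 in Cy5 alone and -0.073 to 0.0052 without single arrays. In the strain difference in response, C2 was -0.025 in the scanner's ratio and in the deposited matrix, -0.050 with scan day, -0.047 with brightness and -0.064 to 0.33 without single arrays. Cd55 there was 0.11 in the scanner's ratio and the matrix, 0.0015 without background correction, 0.22 with median centring, 0.14 in Cy5 alone, 0.32 as the mean of its probes and -0.12 to 0.28 without single arrays. Cfb was 0.022 with median centring, 0.065 in Cy5 alone and -0.13 to 0.061 without single arrays, and Cfd was 0.027 in Cy5 alone. Among controls, C2 was 0.020 and C3ar1 -0.082 with processed Cy5. C3ar1 was -0.014 with quantile normalization, -0.31 with scan day, -0.035 with brightness, -0.083 with slide as a block and -0.061 to 0.086 without single arrays. Cfd there was -0.0073 with the replicate block and -0.058 to 0.088 without single arrays, Cd55 -0.39 to 0.037, Cfb -0.022 to 0.11 and Serping1 -0.032 to 0.046. Among treated rats Cfd was -0.061 with scan day, -0.014 with brightness and -0.0038 to 0.097 without single arrays, and Cd55 was -0.048 to 0.17.

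All 10 member probes were well above background on every array. The dimmest were C3ar1 (log2 Cy5 of 8.66 to 9.86) and the dimmer Cd55 probe (7.92 to 9.94). Whether low signal limited their values was not tested. With 4 or 5 arrays a group, BN treatment and slide cannot be told apart, and within each treatment the strains lay on different slides.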
